A study of Mus musculus with 12 samples.

Results

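The genes of oxidative phosphorylation, the chain of mitochondrial complexes that oxidizes NADH and succinate and makes ATP, were followed across hearts and kidneys of PAI-1 knockout and wildtype mice. They were taken by name, as all platform symbols beginning with Nduf, Uqcr, Cox4 to Cox8 or Atp5, together with Sdha to Sdhd. Of 19057 genes with a symbol on the platform, 87 met this rule. A gene was called detected where the p-value for detection deposited beside its signal was under 0.01 on 1 or more of the arrays, which left 81 members among 11244 genes. They comprised 33 complex I subunits, 7 complex I assembly factors, 3 complex II, 6 complex III and 14 complex IV subunits, 16 subunits of ATP synthase, the supercomplex factor Cox7a2l and a probe annotated to the pseudogene Ndufs5-ps. Despite its name, Ndufa4 was counted with the complex IV subunits and not with complex I. The 6 genes detected in no array were Ndufs1, Ndufaf6, Sdha, Uqcrfs1, Cox7b2 and Cox8c, so nothing is said of their levels.

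The 4 groups were measured on Illumina bead arrays, with 3 arrays in each: PAI-1 knockout hearts (KO/HT), wildtype hearts (WT/HT), PAI-1 knockout kidneys (KO/KID) and wildtype kidneys (WT/KID). All mice were C57BL/6 and 12 months old. The knockout was global and was not confined to any cell type. The study asked why PAI-1 knockout hearts become fibrotic with age while the kidneys do not. Whole organs were used, in which fewer cells of a type and less RNA per cell cannot be told apart.

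Complexes I and II pass electrons from NADH and succinate to ubiquinone, complex III passes them on to cytochrome c, and complex IV, cytochrome c oxidase, hands them to oxygen. Protons pumped by complexes I, III and IV return through ATP synthase, which makes ATP as its rotor turns. Heart muscle is dense in mitochondria, and among kidney cells the proximal tubule and the thick ascending limb are too. Several complex IV subunits exist in forms coded by separate genes, with a ubiquitous form (often called the liver form) in most tissues and another in heart and skeletal muscle.

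Levels are log2 signals after quantile normalization, and differences are log2 differences, so that 1 stands for 2-fold. A signal depends on its probe, so levels were compared between arrays for 1 gene and not between genes. An array detected between 14281 and 16080 probes, and 79 to 81 of the members. The 9 detected cardiomyocyte genes, such as Actc1, were all higher in hearts, and the 10 proximal tubule genes were all lower there, in both genotypes. The genotype labels were not checked against the data. Xist, an RNA made from the silenced X chromosome of females, was seen in 5 of 6 hearts (2 of 3 KO/HT and 3 of 3 WT/HT) and in 0 of 6 kidneys. The Y-linked Eif2s3y was detected in KO/HT replicate 1 alone among the hearts and in all 6 kidneys. Organ and sex therefore cannot be told apart, apart from this 1 heart, whose values are given beside the comparison of the organs. KO/HT replicate 3 also stood apart, correlating with the other hearts at r = 0.986 to 0.989 over 19780 probes, while those correlated with each other at 0.992 to 0.996.

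Most members of every complex were higher in hearts than in kidneys. In knockout mice, 72 of 81 were higher in hearts and 2 were lower, where 35.4% and 33.0% of all detected genes were called higher and lower (limma, adjusted p under 0.05). In wildtype mice, 72 were again higher and 2 lower, against 36.1% and 33.9% of all genes. The same shares stand beside the counts of each complex below. The median difference over the members was 0.85 in knockout and 0.85 in wildtype mice, while that over all genes was 0.02 in knockout and 0.01 in wildtype mice. With an adjusted p under 0.10 and at least 1.5-fold, the criteria of the study's methods, 57 members were higher in knockout hearts and 58 in wildtype hearts, where 18.2% and 18.8% of all genes were. In 69 members every heart lay above every kidney, as in 31.2% of all genes, in 2 every heart lay below, as in 29.6%, and in 10 the organs overlapped.

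**Figure D1:**
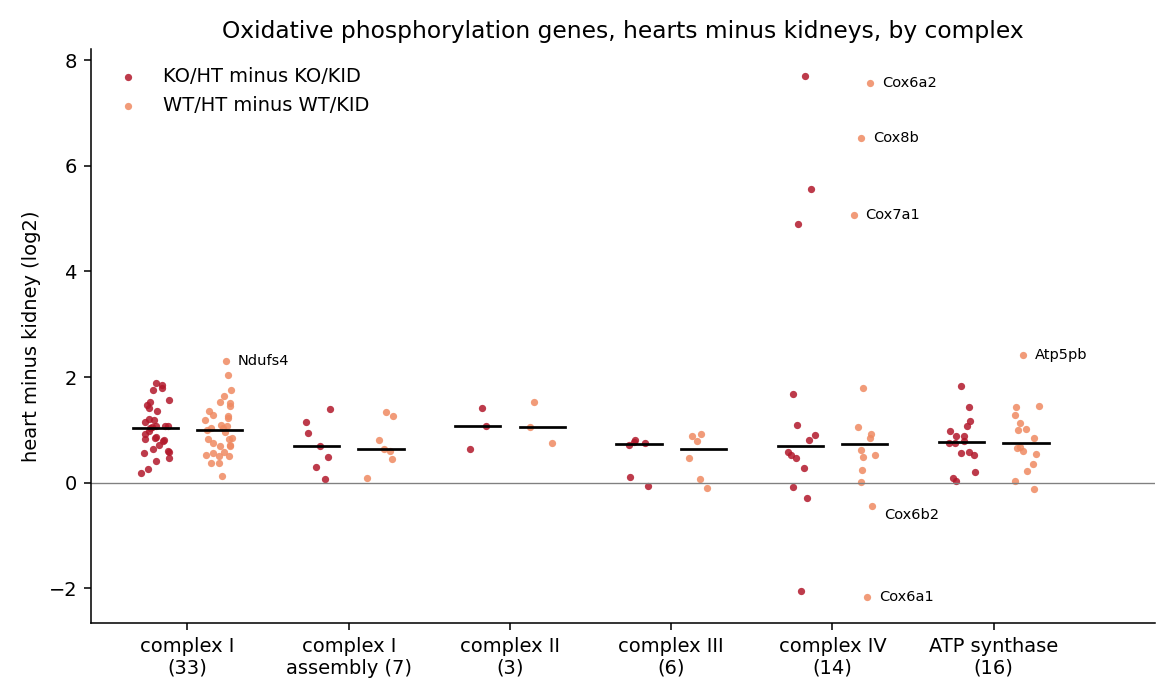
Heart minus kidney difference (log2, y axis) of 79 members by complex, with the number of genes in parentheses, for knockout mice (KO/HT minus KO/KID, dark) and wildtype mice (WT/HT minus WT/KID, light); horizontal spread within a column carries no value, black lines are medians, and Cox7a2l and Ndufs5-ps are not drawn. Most points lie above 0, and Cox6a2, Cox8b and Cox7a1 stand far above the rest while Cox6a1 stands alone near -2.

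KO/HT replicate 1, the heart with Eif2s3y and without Xist, lay above all 6 kidneys in 71 of the 71 members called higher in both genotypes. It lay below all 6 kidneys in the 2 members called lower, Cox6a1 and Cox6b2, and without it the median knockout difference was 0.79. This heart was itself among the KO/HT arrays behind those calls, so these counts are no separate check on sex. Over all genes, every heart lay above every kidney in 31.2% and below in 29.6%, and no share was computed for this heart alone. Over the 81 members the knockout and the wildtype differences correlated at r = 0.991, and at 0.977 without Cox6a2, Cox7a1 and Cox8b, and 77 members had the same sign. These arrays share no samples, but the members share their probes, and their number is no number of replicates. The correlation and the count of shared signs were not computed over all genes, so they are not shown to be particular to the members.

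Complex IV held the members that differed most between the organs, in both directions. Cox6a2, the striated muscle form of subunit VIa, had levels of 14.62, 14.77 and 14.64 in KO/HT and of 14.77, 14.79 and 14.88 in WT/HT. In the kidneys it lay between 6.89 and 7.01 in KO/KID, and had 7.06, 7.22 and 7.45 in WT/KID. The organs were far apart in both genotypes. The difference was 7.71 ± 0.09 (SE) in knockout mice and 7.57 ± 0.09 in wildtype mice (limma, adjusted p 2.12e-15 and 2.34e-15). Its size depended on the processing, at 7.11 in the authors' normalized values and 8.97 with neqc background correction in knockout mice, and at 7.09 and 8.54 in wildtype mice.

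Cox6a1, the ubiquitous form of the same subunit, ran the other way. Its levels were 11.66, 11.62 and 11.83 in KO/HT and 11.72, 11.71 and 11.68 in WT/HT, and 13.71, 13.64 and 13.92 in KO/KID and 13.85, 13.84 and 13.91 in WT/KID. All hearts lay below all kidneys. The difference was -2.05 ± 0.07 in knockout mice, 4.15-fold, and -2.17 ± 0.07 in wildtype mice, 4.49-fold (limma, adjusted p 8.80e-11 and 5.14e-11). A further probe of Cox6a1 gave -2.03 in knockout and -2.10 in wildtype mice. Cox6a1 was the 1 member called lower in hearts by at least 1.5-fold, as 17.6% of all genes were in knockout and 18.4% in wildtype mice.

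Cox7a1, the striated muscle form of subunit VIIa, had levels of 14.59, 14.53 and 14.26 in KO/HT and of 14.56, 14.64 and 14.66 in WT/HT. The kidneys had 9.34, 9.69 and 9.64 in KO/KID and 9.46, 9.58 and 9.60 in WT/KID. Hearts were higher by 4.90 ± 0.10 in knockout and 5.07 ± 0.10 in wildtype mice, 30.0-fold and 33.7-fold (limma, adjusted p 3.27e-13 and 2.33e-13). Its ubiquitous counterpart Cox7a2 did not follow Cox6a1. Cox7a2 had 9.72, 9.13 and 9.24 in KO/HT and 9.59, 9.46 and 9.65 in WT/HT, against 9.40, 9.57 and 9.38 in KO/KID and 9.51, 9.59 and 9.57 in WT/KID. The organs overlapped, and the differences of -0.09 ± 0.12 in knockout and 0.01 ± 0.12 in wildtype mice did not pass the test (limma, adjusted p 0.563 and 0.954). This call turned on scaling, since without quantile normalization Cox7a2 was lower in hearts by -0.69 in knockout and -0.45 in wildtype mice (limma, adjusted p 2.22e-05 and 0.000687). Without KO/HT replicate 1 it was lower in knockout hearts too, by -0.27 (limma, adjusted p 0.00972).

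Cox8b, the striated muscle form of subunit VIII, had levels of 14.34, 14.26 and 14.15 in KO/HT and of 14.07, 14.28 and 14.25 in WT/HT. In the kidneys it had 7.49, 9.05 and 9.53 in KO/KID and 7.65, 6.65 and 8.69 in WT/KID. The hearts lay close together while the kidneys were spread from 6.65 to 9.53, and the probe was not detected in 1 of 3 WT/KID arrays. Hearts were higher by 5.56 ± 0.50 in knockout and 6.54 ± 0.50 in wildtype mice (limma, adjusted p 6.57e-07 and 1.33e-07). Without KO/KID replicate 1 the knockout difference was 4.96, and with neqc background correction the wildtype difference was 7.46 (limma, adjusted p 9.88e-07 and 4.38e-07). Cox8a, the ubiquitous form, has no probe under that symbol.

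**Figure D2:**
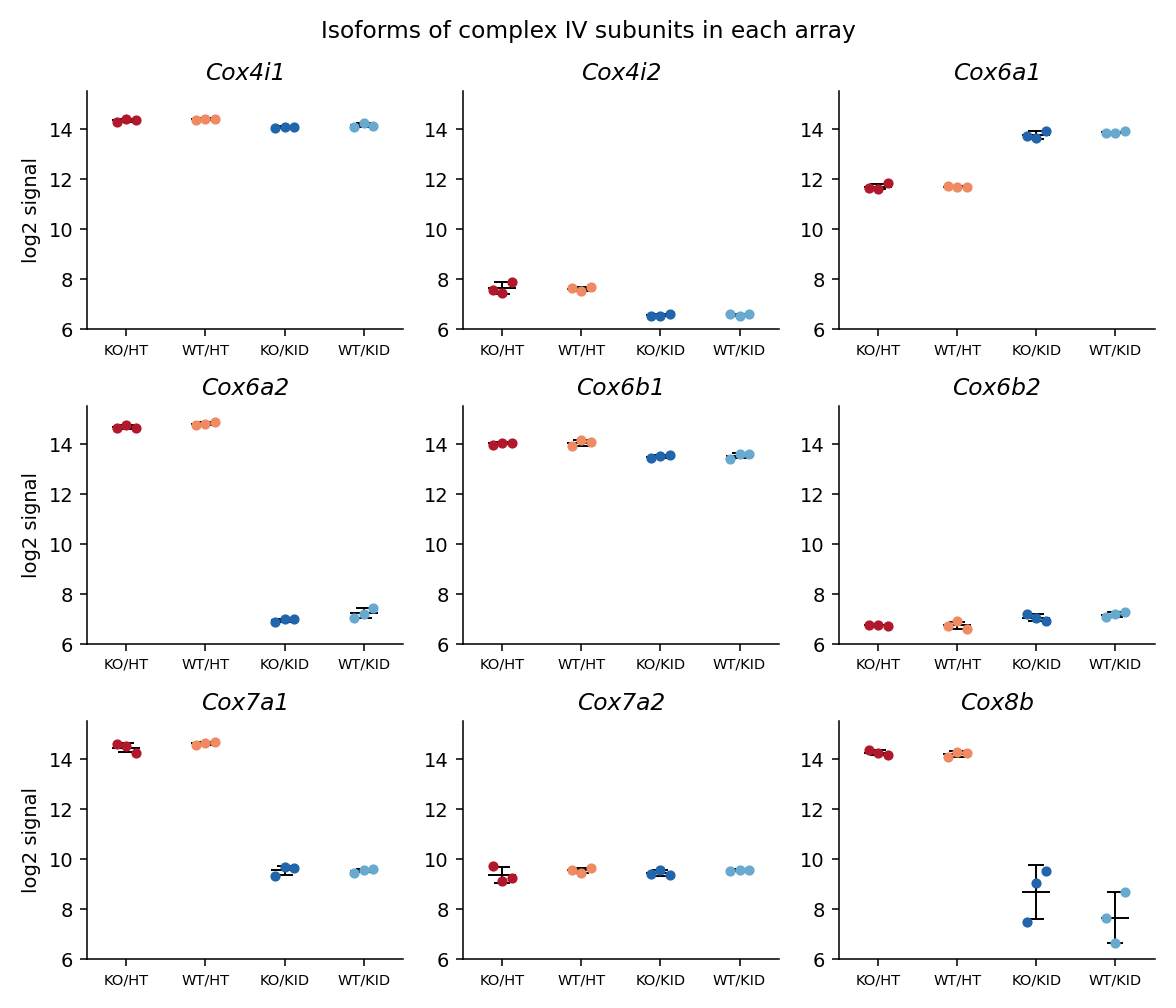
Level (log2 signal, y axis) of 9 complex IV isoforms in each array (points) of KO/HT, WT/HT, KO/KID and WT/KID, with mean and SD over 3 arrays (black); panels are not to be compared in height, since each gene has its own probe. Cox6a2, Cox7a1 and Cox8b are high in both groups of hearts, Cox6a1 is high in both groups of kidneys, Cox7a2 overlaps between organs, and Cox8b alone is spread among the kidneys.

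The 250 bases before the start of the gene are shown for Cox7a1 and Cox8b, which were higher in hearts, and for Cox7a2 and Cox6a1, ubiquitous forms, of which Cox7a2 did not pass the test and Cox6a1 was lower there. They come from RefSeq, build GRCm38.p6, at chr7:30183921-30184170 (plus strand), chr7:140900447-140900696 (minus strand), chr9:79759854-79760103 (minus strand) and chr5:115348959-115349208 (minus strand), each written 5′ to 3′ along the gene. Capitals mark matches, on either strand, to AAGGTCA (the half-site of estrogen-related receptors), CCGGAAG (an ETS site bound by GABP, also named NRF2), GCGCA and GCGC parted by any 1 base (NRF1), and CTA and TAG parted by any 4 bases (MEF2), factors known for mitochondrial or muscle genes.
Cox7a1: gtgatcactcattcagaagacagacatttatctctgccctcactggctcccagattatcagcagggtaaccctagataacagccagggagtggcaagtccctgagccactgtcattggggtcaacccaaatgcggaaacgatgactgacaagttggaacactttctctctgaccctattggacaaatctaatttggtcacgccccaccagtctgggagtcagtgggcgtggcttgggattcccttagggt
Cox8b: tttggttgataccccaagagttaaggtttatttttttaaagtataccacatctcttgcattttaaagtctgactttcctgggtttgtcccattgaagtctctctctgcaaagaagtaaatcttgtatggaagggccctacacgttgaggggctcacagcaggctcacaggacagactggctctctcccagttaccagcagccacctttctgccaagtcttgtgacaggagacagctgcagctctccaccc
Cox7a2: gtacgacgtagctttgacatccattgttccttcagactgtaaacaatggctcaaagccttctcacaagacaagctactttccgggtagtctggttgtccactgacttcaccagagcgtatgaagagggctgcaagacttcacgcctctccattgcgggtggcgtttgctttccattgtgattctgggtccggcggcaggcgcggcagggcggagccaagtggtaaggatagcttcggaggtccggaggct
Cox6a1: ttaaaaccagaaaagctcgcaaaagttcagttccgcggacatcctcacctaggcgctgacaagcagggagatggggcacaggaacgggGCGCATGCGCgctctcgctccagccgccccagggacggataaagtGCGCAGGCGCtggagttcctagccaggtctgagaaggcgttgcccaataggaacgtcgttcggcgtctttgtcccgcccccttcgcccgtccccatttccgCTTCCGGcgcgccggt
The Cox6a1 window held 2 NRF1 matches, which start 162 and 117 bases before the gene, and 1 ETS match, which starts 16 bases before it. The windows of Cox7a1, Cox8b and Cox7a2 held no match to any of the 4 motifs, which says only that these letters are not in these windows. For 69 of the 81 members 74 windows were found, since 5 members have more than 1. Of these windows, 14 held the ETS letters (18.9%, against 6.91% of 32851 windows of all genes), 13 the NRF1 letters (17.6%, against 3.74%), 4 the estrogen-related receptor letters (5.41%, against 4.08%) and 1 the MEF2 letters (1.35%, against 3.20%). The median GC content was 57.6% over the members' windows and 52.4% over all, and its part in these shares was not tested.

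The spread of Cox8b among the kidneys was the widest of any member in either group of kidneys, with an SD of 1.07 in KO/KID and 1.02 in WT/KID. The next widest, that of Atp5pb, was 0.33 in KO/KID and 0.25 in WT/KID, and the median SD over the members was 0.08 in both. Cox8b is also expressed in brown fat. Cidea, a lipid droplet protein of brown fat, had 6.99, 8.28 and 8.52 in KO/KID and 6.99, 6.62 and 7.95 in WT/KID, in the same order of the 6 kidneys as Cox8b, with both replicates 1 nearly equal. Ucp1, the uncoupling protein of brown fat, had 6.52, 7.14 and 6.95 in KO/KID and 6.55, 6.38 and 6.67 in WT/KID, and was detected in 2 of the 6 kidneys, KO/KID replicates 2 and 3. These 2 and WT/KID replicate 3 were the highest for all 3 genes. Cidea was present in the hearts as well, at 9.51 to 9.82.

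Of the 9 adipocyte markers listed, 6 had a detected probe, namely Adipoq, Cidea, Cidec, Lep, Plin1 and Ucp1. They did not share 1 order across the kidneys. Adipoq, the adipokine adiponectin, lay between 8.43 and 9.59 in the 6 kidneys, and from 6.59 to 6.88 in the hearts. Lep, the adipokine leptin, had 7.45, 7.40 and 7.16 in KO/KID, and in WT/KID it was highest in replicate 1, with 7.68 in replicate 2 and 6.70 in replicate 3. It was lowest in the 3 kidneys that had the highest Cox8b. Fat cell transcripts were measured in every kidney. Cox8b was 1.03 ± 0.50 higher in KO/KID than in WT/KID, which did not pass the test (limma, adjusted p 0.534), and the groups overlapped. None of the 6 markers passed in the same comparison, with KO/KID minus WT/KID at 0.75 for Cidea, 0.34 for Ucp1, 0.20 for Adipoq, 0.17 for Cidec, 0.07 for Plin1 and -0.12 for Lep (limma, adjusted p 0.346 or more). Their part in the level of Cox8b was not tested.

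**Figure D3:**
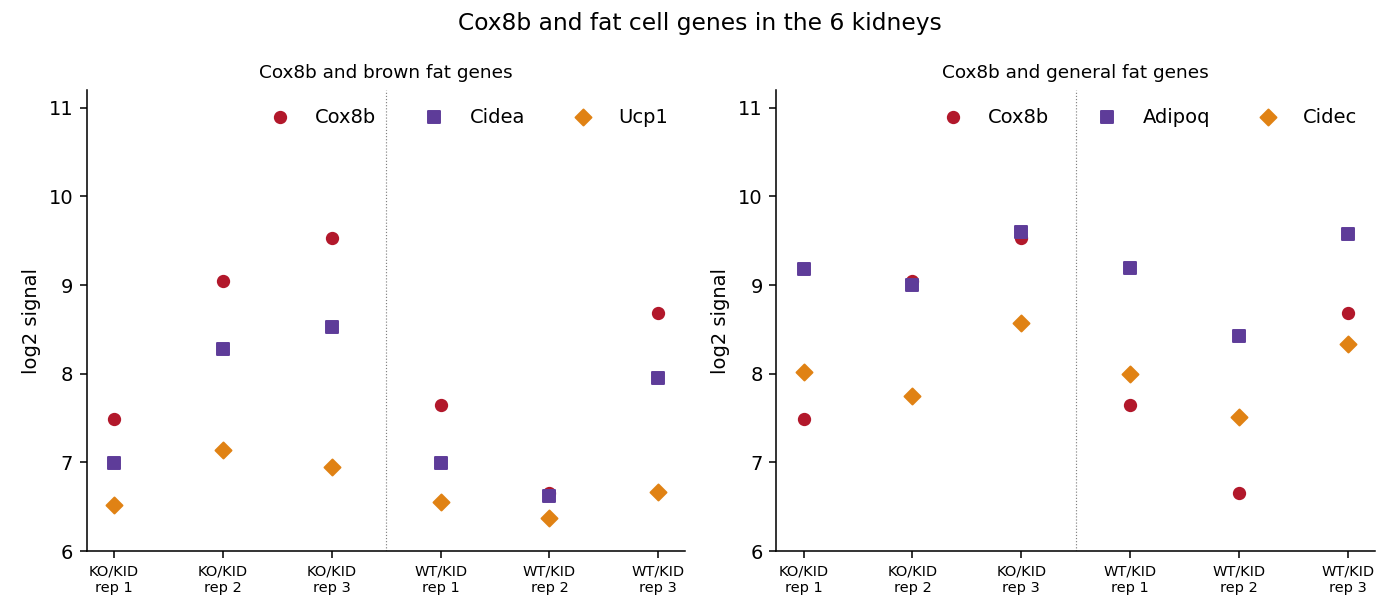
Level (log2 signal, y axis) in each of the 3 KO/KID and 3 WT/KID arrays of Cox8b with the brown fat genes Cidea and Ucp1 (left) and with Adipoq and Cidec (right); genes are to be read across arrays, not against each other in height. Cox8b and Cidea are highest in KO/KID replicates 3 and 2 and WT/KID replicate 3, and lowest in WT/KID replicate 2.

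The other complex IV members with known isoforms differed less. Cox4i1, the general form of subunit IV, had 14.27, 14.40 and 14.37 in KO/HT and 14.34, 14.42 and 14.40 in WT/HT, against 14.05, 14.10 and 14.09 in KO/KID and 14.09, 14.24 and 14.12 in WT/KID. It was higher in hearts by 0.27 ± 0.06 in knockout and 0.24 ± 0.06 in wildtype mice (limma, adjusted p 0.00102 and 0.00237). Cox4i2, a form known from lung and induced by low oxygen, had 7.58, 7.47 and 7.91 in KO/HT and 7.66, 7.53 and 7.68 in WT/HT, and was detected in none of the 6 kidneys. Against the lowest detected signal of the kidney arrays it was at least 2.01-fold higher in KO/HT and at least 1.93-fold higher in WT/HT. These bounds were not tested. Without them the differences were 1.09 in knockout and 1.05 in wildtype mice (limma, adjusted p 3.70e-07 and 5.13e-07). Cox6b1, the general form of subunit VIb, was higher in hearts by 0.53 ± 0.07 in knockout and 0.52 ± 0.07 in wildtype mice (limma, adjusted p 3.31e-05 and 3.57e-05). A further probe of Cox6b1 gave 0.98 in knockout and 1.01 in wildtype mice.

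Cox6b2, known as a testis form, lay near the detection limit and was lower in hearts. It had 6.78, 6.79 and 6.75 in KO/HT and 6.73, 6.92 and 6.63 in WT/HT, against 7.22, 7.06 and 6.93 in KO/KID and 7.07, 7.21 and 7.30 in WT/KID. All hearts lay below all kidneys, and the differences were -0.30 ± 0.09 in knockout and -0.43 ± 0.09 in wildtype mice (limma, adjusted p 0.0105 and 0.000842). Without KO/KID replicate 1 the knockout difference was -0.22 and no longer passed (limma, adjusted p 0.0529). Cox7b, an X-linked subunit, was 1.67 ± 0.14 higher in knockout hearts and 1.79 ± 0.14 higher in wildtype hearts (limma, adjusted p 2.48e-07 and 1.22e-07). Cox7a2l, a factor linked to supercomplexes of complexes III and IV, was higher in hearts by 1.67 ± 0.12 in knockout and 1.84 ± 0.12 in wildtype mice (limma, adjusted p 1.09e-07 and 4.28e-08). Supercomplexes themselves were not measured. In all, 11 of the 14 complex IV subunits were higher in hearts and 2 were lower in each genotype, with medians of 0.69 in knockout and 0.73 in wildtype mice.

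In complex I all 33 subunits were higher in knockout hearts and 32 were higher in wildtype hearts, with medians of 1.04 in knockout and 1.00 in wildtype mice. The core subunits carry the flavin and the iron-sulfur clusters, and the 5 that were detected were all higher in hearts. Ndufv1, which binds NADH and the flavin, had 13.61, 13.85 and 13.72 in KO/HT and 13.75, 13.73 and 13.85 in WT/HT, against 13.06, 13.25 and 13.06 in KO/KID and 13.18, 13.24 and 13.32 in WT/KID. The differences were 0.60 ± 0.07 in knockout and 0.53 ± 0.07 in wildtype mice (limma, adjusted p 1.36e-05 and 4.38e-05). Ndufv1 thus had the smallest difference of the 5, though no array of one organ reached the other.

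Ndufv2, its partner in the NADH-binding module, was higher in hearts by 1.04 ± 0.06 in knockout and 1.10 ± 0.06 in wildtype mice (limma, adjusted p 4.26e-09 and 2.50e-09). Ndufs3, which faces the matrix, was higher in hearts by 1.07 ± 0.09 in knockout and 1.27 ± 0.09 in wildtype mice (limma, adjusted p 2.82e-07 and 4.97e-08). Ndufs7 and Ndufs8, which carry clusters near the ubiquinone site, were 1.07 and 0.92 higher in knockout hearts. In wildtype hearts they were 1.03 and 0.85 higher (limma, adjusted p at most 2.15e-08).

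The supernumerary subunits surround the core and are needed for assembly and stability. Of the 28, all were higher in knockout hearts and 27 in wildtype hearts, with differences of 0.18 to 1.89 in knockout and 0.12 to 2.30 in wildtype mice, and Ndufa13 passed in knockout mice alone (limma, adjusted p 0.0139, against 0.0743 in wildtype mice). Ndufs4, whose loss causes mitochondrial disease in humans and mice, had 12.85, 12.81 and 12.43 in KO/HT and 12.78, 12.92 and 12.74 in WT/HT, and 10.61, 11.09 and 10.73 in KO/KID and 10.50, 10.47 and 10.56 in WT/KID. Its difference was 1.89 ± 0.13 in knockout and 2.30 ± 0.13 in wildtype mice (limma, adjusted p 4.04e-08 and 5.52e-09). The gene's 3 other probes gave 1.31 to 1.60 in knockout and 1.42 to 1.80 in wildtype mice. Ndufb2 differed by 1.84 ± 0.16 in knockout and 2.04 ± 0.16 in wildtype mice (limma, adjusted p 5.50e-07 and 1.94e-07). Of the 7 assembly factors, which help build complex I and leave it, 6 were higher in hearts in each genotype, with medians of 0.69 in knockout and 0.64 in wildtype mice, and Ndufaf3 did not pass.

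Succinate dehydrogenase, complex II, also works in the citric acid cycle, and its 3 detected subunits were higher in hearts. Sdhb, the iron-sulfur subunit, had 12.66, 12.82 and 12.42 in KO/HT and 12.73, 12.57 and 12.67 in WT/HT, and 11.11, 11.29 and 11.24 in KO/KID and 11.06, 11.07 and 11.26 in WT/KID. It was 1.42 ± 0.10 higher in knockout and 1.53 ± 0.10 higher in wildtype hearts, 2.67-fold and 2.88-fold (limma, adjusted p 4.69e-08 and 2.19e-08). The membrane anchors Sdhc and Sdhd were 0.64 ± 0.07 and 1.08 ± 0.17 higher in knockout hearts. In wildtype hearts they were 0.74 ± 0.07 and 1.06 ± 0.17 higher (limma, adjusted p at most 0.000107 for both anchors in both genotypes).

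Of the complex III subunits taken by the name rule, none differed between the organs by more than 1 log2 unit. Cytochrome c1 is not covered by that rule. Among the 6 detected members, 4 were higher in hearts in each genotype, with medians of 0.73 in knockout and 0.63 in wildtype mice. The large subunits of the matrix side, Uqcrc1 and Uqcrc2, were 0.80 ± 0.08 and 0.78 ± 0.05 higher in knockout hearts. In wildtype hearts they were 0.79 ± 0.08 and 0.92 ± 0.05 higher (limma, adjusted p at most 1.89e-06). Uqcrh, the hinge subunit near cytochrome c1, was higher in hearts by 0.75 ± 0.07 in knockout and 0.89 ± 0.07 in wildtype mice (limma, adjusted p 5.56e-07 and 1.05e-07). Uqcr10 and Uqcrq did not pass in either genotype, and Uqcrq lay near the detection limit in both organs, with -0.10 ± 0.10 in wildtype mice (limma, adjusted p 0.364).

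Of the 16 ATP synthase subunits, 13 were higher in knockout hearts and 14 in wildtype hearts, with medians of 0.77 in knockout and 0.75 in wildtype mice, and 3 of the 5 F1 subunits were among them in each genotype. Atp5a1, the alpha subunit of the head, had 11.75, 11.42 and 11.23 in KO/HT and 11.63, 11.42 and 11.55 in WT/HT, against 10.60, 10.43 and 10.42 in KO/KID and 10.74, 10.41 and 10.45 in WT/KID. It was higher in hearts by 0.98 ± 0.12 in knockout and 1.00 ± 0.12 in wildtype mice (limma, adjusted p 1.59e-05 and 1.29e-05). Atp5b, the catalytic beta subunit that pairs with alpha, had 14.98, 15.02 and 14.97 in KO/HT and 14.97, 14.98 and 14.99 in WT/HT, against 14.93, 14.93 and 14.88 in KO/KID and 14.98, 14.97 and 14.90 in WT/KID. Its differences of 0.08 ± 0.04 in knockout and 0.03 ± 0.04 in wildtype mice did not pass (limma, adjusted p 0.139 and 0.546). These levels were close to 15.15, the highest value of any probe on each array.

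In the central stalk of the F1 head, Atp5c1, the gamma subunit, was higher in hearts by 0.75 ± 0.06 in knockout and 1.01 ± 0.06 in wildtype mice, and Atp5e, the epsilon subunit, 0.89 ± 0.11 in knockout and 1.14 ± 0.11 in wildtype mice (limma, adjusted p at most 1.63e-05). Atp5d, the delta subunit beside them, differed by 0.03 ± 0.09 in knockout and -0.12 ± 0.09 in wildtype mice (limma, adjusted p 0.762 and 0.239), and the organs overlapped. Without quantile normalization Atp5d was lower in hearts, at -0.31 in knockout and -0.34 in wildtype mice (limma, adjusted p 0.0174 and 0.0125).

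The c subunit, which forms the rotor ring, is coded by several genes for 1 mature protein. Atp5g2 was higher in hearts by 0.87 ± 0.07 in knockout and 0.84 ± 0.07 in wildtype mice (limma, adjusted p 1.23e-07 and 1.80e-07). Atp5g3 differed by 0.19 ± 0.09 in knockout and 0.22 ± 0.09 in wildtype mice, which passed in wildtype mice alone (limma, adjusted p 0.0831 and 0.0466), and that call ended when any 1 of 6 of the arrays was left out. All 9 stalk and membrane subunits were higher in hearts in both genotypes, by 0.52 to 1.84 in knockout and 0.36 to 2.43 in wildtype mice. Atp5pb, subunit b of the outer stalk, had 12.65, 12.48 and 12.25 in KO/HT and 12.64, 12.55 and 12.66 in WT/HT, and 10.40, 11.01 and 10.46 in KO/KID and 9.99, 10.11 and 10.47 in WT/KID. It was higher in hearts by 1.84 ± 0.16 in knockout and 2.43 ± 0.16 in wildtype mice (limma, adjusted p 5.42e-07 and 3.50e-08). The gene's 3 other probes gave 0.48 to 2.13 in knockout and 0.33 to 2.70 in wildtype mice, and the mean over its probes gave 1.64 in wildtype mice. Atp5j, which couples the outer stalk, was higher in hearts by 1.17 ± 0.09 in knockout and 1.44 ± 0.09 in wildtype mice (limma, adjusted p 1.77e-07 and 2.19e-08).

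Genes that work with the complexes under other names were mostly higher in hearts too. Assembly factors of complexes I to IV and ATP synthase without an Nduf symbol numbered 38 among the detected genes. Knockout hearts had 28 of them higher and 4 lower, against 35.4% and 33.0% of all genes. Wildtype hearts had 30 higher and 3 lower, against 36.1% and 33.9%. Medians were 0.64 in knockout and 0.66 in wildtype mice. Cox10, which makes heme for complex IV, was higher in hearts by 1.82 in knockout and 1.80 in wildtype mice, while Cox15, which makes its heme a, differed by -0.45 in knockout and -0.62 in wildtype mice (limma, adjusted p at most 0.00215). The electron carrier Cycs, cytochrome c, was higher in hearts by 1.05 in knockout and 1.14 in wildtype mice (limma, adjusted p at most 7.68e-06). Atpif1, which inhibits ATP synthase when it runs in reverse, was lower in hearts, with differences of -0.72 ± 0.08 in knockout and -0.90 ± 0.08 in wildtype mice (limma, adjusted p 3.10e-06 and 3.63e-07), with every heart below every kidney. Of 16 further symbols listed for subunits or partners under other names, Atpif1 was the 1 with a detected probe. Symbols without any probe were not told apart from undetected ones.

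Between genotypes no member passed the test in either organ. In hearts, 0 of 81 members were higher and 0 lower in KO/HT than in WT/HT, where 0.0178% and 0.0623% of all genes were called (limma, adjusted p under 0.05). At an unadjusted p under 0.05, 0 members were higher and 4 lower, against 4.24% and 4.10% of all genes. In kidneys, 0 members were higher and 0 lower in KO/KID, where 0.125% and 0.196% of all genes were called. At an unadjusted p under 0.05, 2 were higher and 8 lower, against 4.80% and 5.51%. Without quantile normalization 4 members were called higher in KO/KID, on a scale where the median of all kept probes was itself 0.12 higher in KO/KID. The SE of a difference ran over the members from 0.04 to 0.50, and with 3 arrays a group a p that misses the threshold does not show that the genotypes were alike.

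Differences between genotypes lay slightly below 0 in both organs on the quantile normalized scale. The median over the members was -0.05 in hearts and -0.05 in kidneys, where that over all genes lay within 0.01 of 0 in each. In hearts 59 of 81 differences were negative (72.8%, against 51.1% of all genes), and in kidneys 56 (69.1%, against 51.9%). In the hearts the count moved with the array left out. Without KO/HT replicate 3 the number was 43 and the median -0.01, and without KO/HT replicate 1 it was 65 and -0.06. In the kidneys it turned on the scaling, since without quantile normalization 12 of 81 were negative and the median was 0.12, where that of all kept probes was 0.12 as well. KO/HT replicate 3 was the lowest of the 6 hearts for 49 of the 81 members (60.5%, against 22.0% of all genes), and its median deviation from the median heart was -0.11, while those of the other hearts ran from 0.00 to 0.03. The same array had the highest Nppa, 14.74, and the highest Acta1, 13.92, of all hearts. These 2 genes were picked from lists of atrial and skeletal muscle markers, whose other genes are not given for this array. In KO/HT minus WT/HT, 2 of the 3 detected atrial markers and 4 of the 6 detected skeletal muscle markers were negative. Nppa and Acta1 therefore name no state of KO/HT replicate 3, and why the members were lower in it was not tested.

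**Figure D4:**
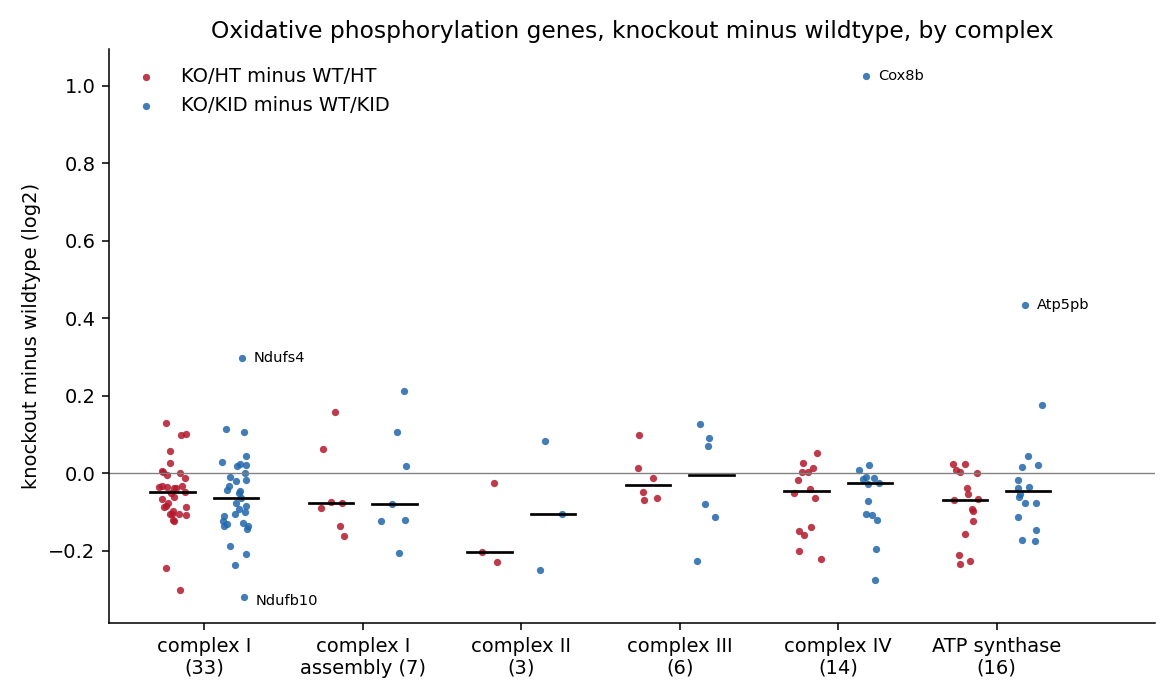
Knockout minus wildtype difference (log2, y axis) of 79 members by complex, with the number of genes in parentheses, in hearts (KO/HT minus WT/HT) and kidneys (KO/KID minus WT/KID); horizontal spread within a column carries no value, black lines are medians, and Cox7a2l and Ndufs5-ps are not drawn. No point passed the test, and apart from Cox8b and Atp5pb in kidneys the differences lie between -0.32 and 0.30.

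The 3 members with the smallest p in hearts all had lower means in the knockout. Ndufb11, an X-linked membrane subunit of complex I, had 7.29, 7.34 and 7.27 in KO/HT and 7.41, 7.56 and 7.67 in WT/HT. Its groups did not overlap, but the difference of -0.24 ± 0.07 did not pass (limma, adjusted p 0.343). Atp5c1 had 13.51, 13.65 and 13.49 in KO/HT and 13.79, 13.66 and 13.83 in WT/HT, a difference of -0.21 ± 0.06 (limma, adjusted p 0.360). Sdhc had 12.87, 12.94 and 12.64 in KO/HT and 13.10, 12.97 and 12.98 in WT/HT, a difference of -0.20 ± 0.07 (limma, adjusted p 0.512). In 4 members all KO/HT arrays lay below all WT/HT arrays and in 0 they lay above, where 4.90% and 5.54% of all genes did.

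In the kidneys the smallest p values were those of 3 small subunits of the membrane arm of complex I. Ndufb10 had 10.42, 10.31 and 10.29 in KO/KID and 10.62, 10.61 and 10.74 in WT/KID. Its groups did not overlap, and the difference was -0.32 ± 0.08 (limma, adjusted p 0.0996). Ndufa1, X-linked, had 12.78, 12.94 and 12.85 in KO/KID and 13.09, 13.05 and 13.14 in WT/KID, a difference of -0.24 ± 0.06 (limma, adjusted p 0.138). Ndufa3 had 12.75, 12.63 and 12.81 in KO/KID and 12.98, 12.95 and 12.89 in WT/KID, a difference of -0.21 ± 0.06 (limma, adjusted p 0.171). In 14 members all KO/KID arrays lay below all WT/KID arrays and in 2 they lay above, where 9.10% and 8.24% of all genes did.

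**Figure D5:**
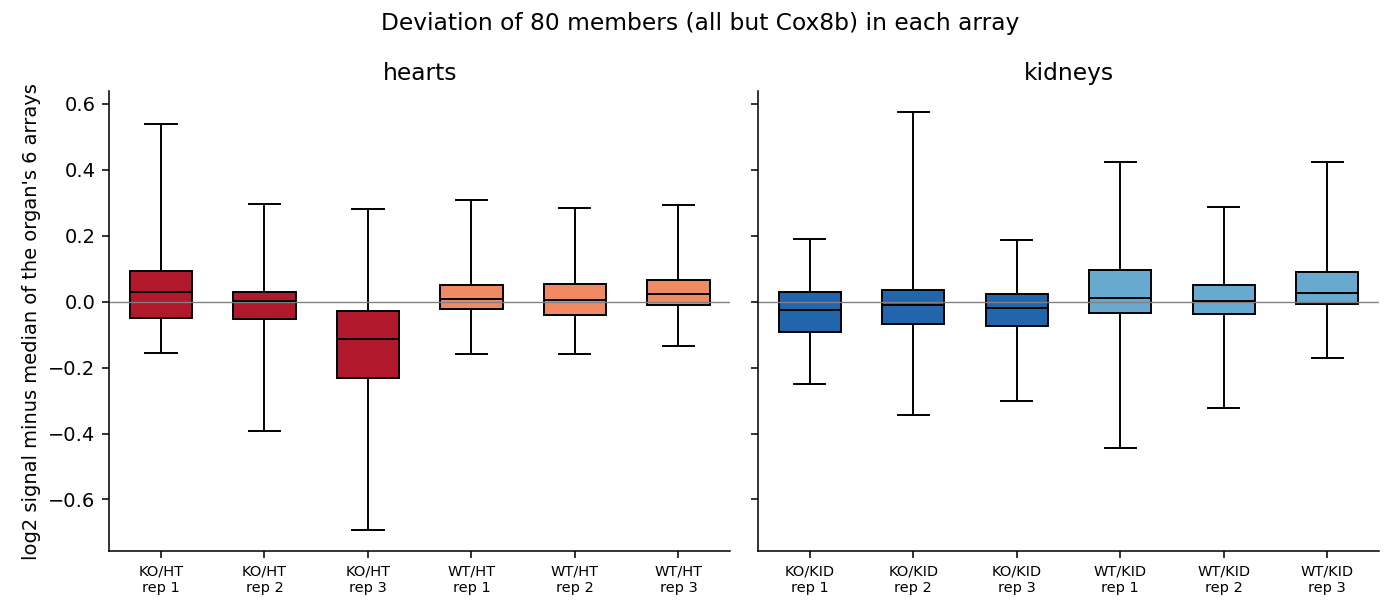
Deviation of 80 members (all but Cox8b) from the median of the organ's 6 arrays (log2, y axis) in each heart (left) and each kidney (right); boxes are quartiles with the median, and whiskers reach the lowest and highest member. KO/HT replicate 3 lies below the other hearts, with a median near -0.11.

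The heart minus kidney difference was not shown to depend on genotype for any member. The interaction, the difference between genotypes in hearts minus that in kidneys, was called higher for 0 and lower for 0 of 81 members, where 0.0267% and 0.0178% of all genes were called (limma, adjusted p under 0.05). At an unadjusted p under 0.05, 1 was higher and 3 lower, against 4.79% and 4.22%. The smallest p values were those of Atp5c1, with an interaction of -0.26 ± 0.09, Atp5pb, with -0.59 ± 0.23, and Ndufs4, with -0.42 ± 0.18 (limma, adjusted p 0.427, 0.478 and 0.531). For Cox8b it was -0.98 ± 0.70 (limma, adjusted p 0.723), with the spread among the kidneys given above. For Cox6a1, Cox6a2 and Cox7a1 it was 0.11, 0.14 and -0.17 (limma, adjusted p 0.799, 0.789 and 0.772).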

How the data were processed

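Hearts and kidneys of PAI-1 knockout and wildtype mice were measured on 12 Illumina mouse bead arrays, 3 per group. For each of 45281 probes the authors deposited a summary signal, a linear intensity that is not normalized between arrays, and a p-value for detection above background. How these p-values were computed is not stated in the text read. A further table deposited by the authors holds linear intensity values made with lumi and quantile normalization, and was used as an alternative.

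The deposited signals were quantile normalized over 12 arrays and log2 transformed. The filter kept 19780 probes whose detection p-value was under 0.01 on any of the arrays (17073 carry 1 gene symbol). Where several probes of a gene were kept, the brightest on average stood for it. Group means were fitted jointly to the 12 arrays with limma (R 4.3.3, limma 3.58.1), leaving 8 residual degrees of freedom. Tests were two-sided, with Benjamini-Hochberg adjustment over all kept probes. A lower bound of a fold was set against the lowest detected signal of an array. No read depth exists for a signal, and the number of arrays limits the precision. The study's methods state 3 mice per genotype. Since Xist and Eif2s3y differ between same-numbered hearts and kidneys in 5 of 6 pairs, these pairs are not single mice, and p-values measure the spread between arrays.

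No probe is annotated to Ndufs5, Uqcrb, Cox7c, Cox8a or Atp5g1. Named with values were the complex IV isoforms, the c, F1, complex II and complex I core subunits, Uqcrc1 and Uqcrc2, the extremes of each complex by the wildtype organ difference, and the 3 smallest p values of each genotype comparison and the interaction. Cox15, Cox10, Cycs and Atpif1, and the fat cell and heart genes, were named after their values were seen. The members and lists were chosen with earlier results of these data known. The alternatives were neqc (offset 16), median centring in place of quantile normalization, the authors' values, other detection filters, the groups compared alone, a block for replicate number, a random block for mouse number, trend and robust moderation, the mean over probes, and each array left out in turn. The fit was tested on simulated data.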

Additional observations from a re-analysis of the deposited data

How the results depend on the processing

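Across 23 alternatives, 59 of the 68 named organ differences kept their call and direction. The sign of differences that were called under neither setting was not scored. The exceptions were Atp5b, Atp5d, Atp5g3, Cox6b2 and Cox7a2. The size of a called difference moved by over 1.5-fold under neqc for Cox6a2, Cox7b and Cox4i2 in both genotypes and for Cox8b and Cox6b2 in wildtype mice. In knockout mice it did so without quantile normalization for Atp5e (0.30) and Sdhd (0.49), in the authors' values for Cox6a2, and without KO/KID replicate 1 for Cox8b. In wildtype mice it did so for Atp5pb in the mean over probes. Leaving out each of the 12 arrays in turn gave 71 to 72 members higher and 1 to 3 lower in KO/HT than in KO/KID, and 71 to 72 higher and 2 to 2 lower in WT/HT than in WT/KID. It gave 0 to 0 in either direction for both genotype comparisons and the interaction. The count of 1 came without KO/KID replicate 1, where Cox6b2 no longer passed (-0.22, limma, adjusted p 0.0529), and that of 3 without KO/HT replicate 1, where Cox7a2 passed (-0.27, limma, adjusted p 0.00972). The same-numbered arrays did not pair, with correlations of their deviations from -0.203 to 0.207 and 4 of 18 pairs above 0.1. With the replicate number as a block, 72 members were higher and 2 lower in knockout hearts, 71 were higher and 2 lower in wildtype hearts, and 0 passed between genotypes. That block ended the wildtype call of Atp5g3 (limma, adjusted p 0.0699), which also ended under neqc, the wider and the absent detection filter, and without KO/HT replicate 3, KO/KID replicate 3, or replicate 2 or 3 of WT/HT or WT/KID, with the adjusted p over all these from 0.0506 to 0.154. In knockout mice Atp5g3 passed without KO/KID replicate 1 (limma, adjusted p 0.0227).

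Without quantile normalization the median of all kept probes moved to 0.12 in KO/KID minus WT/KID, -0.14 in KO/HT minus KO/KID and -0.08 in WT/HT minus WT/KID. On that scale 4 members were called higher in KO/KID than in WT/KID, 5 lower in KO/HT than in KO/KID and 4 lower in WT/HT than in WT/KID, and 68 were higher in KO/HT and 70 in WT/HT. Atp5d then stood at -0.31 in KO/HT minus KO/KID (limma, adjusted p 0.0174) and Cox7a2 at -0.45 in WT/HT minus WT/KID (limma, adjusted p 0.000687). Atp5b passed there at 0.28 in knockout and 0.26 in wildtype mice, and in the authors' values in knockout mice (limma, adjusted p 0.0318). The cause was not tested. Probes near background or near the top of the scale limit what the arrays can show.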

Other observations

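In 23 members a further probe of the same gene, detected in all 12 arrays, allowed its organ difference to be set beside that of the brighter probe. Where the brighter probe averaged above 13 log2, the dimmer one gave the larger difference in size in 10 of 11 genes in knockout and in 8 of 11 in wildtype mice. At or below 13 log2 it did so in 5 of 12 genes in knockout and 6 of 12 in wildtype mice. The same counts were not made over all genes with several probes, so they are not shown to be particular to the members. For Atp5o, a subunit of the outer stalk of ATP synthase, the brighter probe gave 0.75 and the dimmer 1.84 in knockout mice, and 0.66 and 2.21 in wildtype mice. For Ndufs6, a complex I subunit, they gave 0.56 and 1.57 in knockout mice and 0.51 and 1.77 in wildtype mice. For Cox5b, a complex IV subunit, they gave 0.47 and 1.22 in knockout mice and 0.48 and 1.30 in wildtype mice. In 3 members a dimmer probe was called in the other direction in wildtype mice. Ndufb8, a membrane subunit of complex I, had 0.42 and -0.61 in knockout and 0.38 and -0.25 in wildtype mice. Ndufab1, the acyl carrier subunit of complex I, had 1.05 and -0.25 in knockout and 0.96 and -0.17 in wildtype mice for its brightest and dimmest probe, and its other 2 probes gave 1.04 to 1.75 in wildtype mice. Atp5mpl, a small subunit of ATP synthase, had 0.56 and -0.10 in knockout and 0.36 and -0.12 in wildtype mice, where the dimmer probe was detected in 2 arrays.

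Over all members the size of the wildtype organ difference had a median of 0.82 among 19 members with a mean level under 10, of 1.21 among 36 between 10 and 13, and of 0.54 among 26 above 13. The part of signal level in the size of these differences was not tested.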
